A study of Danio rerio with 12 samples.

Results

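The genes described here are 40 zebrafish genes of the plasma proteolytic systems, 23 for complement and 17 for clotting and fibrinolysis, out of 26255 genes in the deposited tables. They were taken by gene symbol, from a list of complement and coagulation factors, most of them made mainly by the liver. The rule uses symbols alone. Poly(A) RNA from larvae was sequenced in 12 libraries. The 5 control libraries came from larvae given the solvent DMSO, the 4 low-dose libraries from larvae given broflanilide at 1 µg/L, and the 3 high-dose libraries from larvae given 10 µg/L. Broflanilide is a meta-diamide insecticide that acts on insect GABA receptors. No source used here gives the age of the larvae, the length of exposure, the strain or the number of larvae in a library. The labels name larvae as the tissue, so the liver was measured as part of the body. A change in the number of liver cells and a change in RNA per liver cell cannot be told apart.

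Complement is a chain of plasma proteases and carriers that marks and opens microbial membranes. It is started by recognition proteases or by the alternative pathway, meets at C3, and ends in a pore built from the terminal components. Clotting is a second protease chain, in which tissue factor and factor VII lead through factor X and prothrombin to a fibrin mesh, and plasmin later dissolves that mesh. Hepatocytes make most of these proteins and secrete them into plasma. The roles given below were mostly worked out in mammals.

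Levels are given as CPM, which is each count relative to the library's TMM-scaled total. Total counts were 11721407 to 15491749 for control libraries, 10721597 to 16380300 for low-dose libraries and 11920241 to 13865533 for high-dose libraries. Of those counts, the members together took 0.0205% to 0.0496% in the controls, 0.0307% to 0.0543% in low-dose larvae and 0.0322% to 0.0798% in high-dose larvae. The labels do not say whether replicates were separate clutches or tanks. The p-values therefore reflect the scatter of these libraries, which may be technical.

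All 40 members were in the high-dose table and 38 in the low-dose table. Of 37 symbols sought, 6 matched no row by name in either table, namely c4b, cfd, cfi, f9a, kng1 and serpinc1. The genes f13b and c3a.5 were in the high-dose table alone, with 0 counts in every control and at most 3 counts in a high-dose library. The symbols c6 and proca each matched 2 Ensembl genes. A mean count of at least 10 was reached by 31 members, 17 for complement and 14 for clotting, and these were tested. The other 9 stayed below it, namely c1s, c3a.2, c3a.4, c3a.5, c7b, the c6 gene ENSDARG00000057113, f9b, f13b and the proca gene ENSDARG00000093079.

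Several members sit side by side in the genome, with coordinates as the tables give them on the build GRCz11. The genes f7, f7i and f10 lay next to each other at chr1:119960-142469, and fgb and fga lay at chr1:10051763-10071539. The 6 c3a copies lay together at chr1:55997173-56320569, and c3b.2 and c3b.1 at chr22:26129250-26236275. No source used here says whether counting used the strand of a read. The gene c8b, at chr2:1478225-1518360 on the minus strand, spans c8a, at chr2:1486822-1499584 on the plus strand, so the split of reads between c8a and c8b is uncertain. The proca genes overlap on 1 strand, and how reads in the overlap, or reads shared by the tandem C3 copies, were assigned is not known, so those splits are uncertain too.

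Across genes, levels were compared as FPKM, the authors' length-scaled values. The highest complement member in controls was c9, which forms the bulk of the membrane pore, at 17.9 ± 11.5 FPKM (SD, n = 5). The next 3 were clotting genes. The fibrinogen alpha chain gene fga stood at 14.8 ± 7.42 FPKM, the plasminogen gene plg at 14.5 ± 6.54 and the fibrinogen beta chain gene fgb at 11.98 ± 5.56 (SD, n = 5 each). These 4 were the members at or above 10 FPKM, and 17 of the 38 with control values lay below 1 FPKM. The median control level was 0.958 FPKM over 22 complement members and 2.55 FPKM over 16 clotting members. At every step of this order, the control range of a gene overlapped that of the next. Many members moved together across the controls, so overlapping ranges cannot tell whether neighbours differed within each library, which was not tested. Within the C3 family c3a.1 was the highest, at 5.43 ± 3.41 FPKM in controls (SD, n = 5), followed by c3a.3 at 3.00 ± 1.62, while c3b.1 stood at 0.925 ± 0.250.

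**Figure D1:**
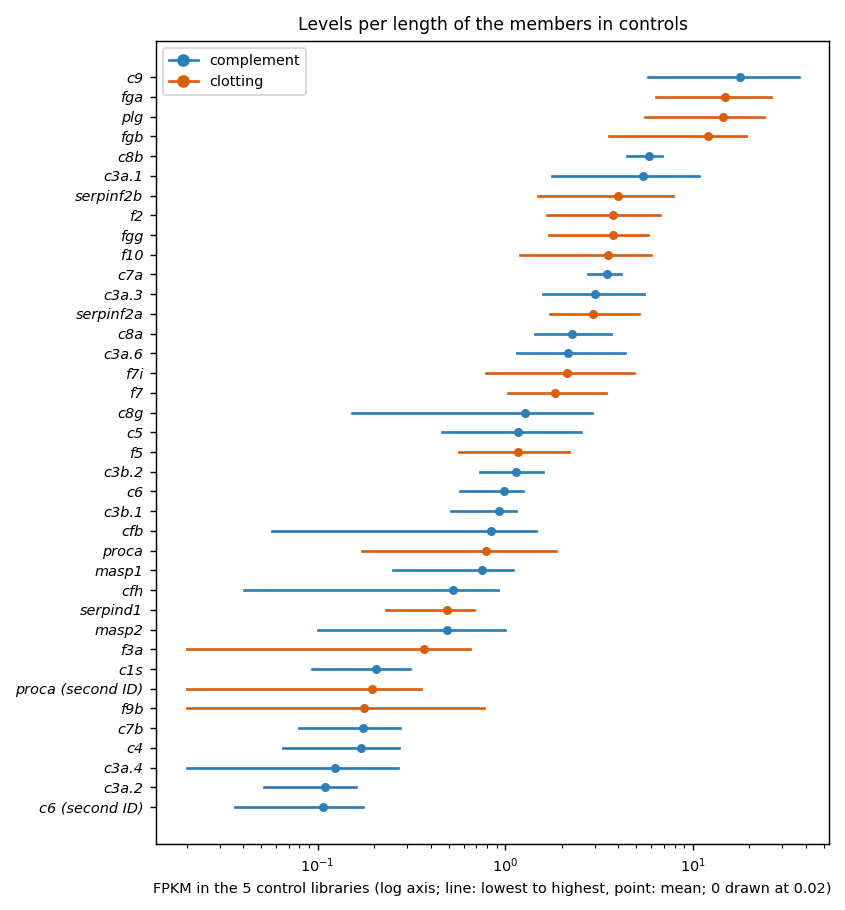
FPKM of the 38 members with control values, on a log axis, with complement in blue and clotting in orange; each line runs from the lowest to the highest of the 5 controls and the point is the mean. The genes c9, fga, plg and fgb lead, and the line of each gene overlaps that of the next one down.

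The libraries of one group differed widely in these genes, and together across genes. Control replicate 3 held the highest control level in 22 of the 31 tested members and control replicate 2 the lowest in 18. Control replicate 3 exceeded control replicate 2 in 27 of 31, with a median difference of 1.74 on the log2 CPM scale. The median SD of log2 CPM over the 5 controls was 0.77 for the 31 members against 0.48 over all 18786 genes. It was lowest for c8b, at 0.27, and c7a, at 0.29, and highest for cfb, at 1.66, and cfh, at 1.55. Both cfb and cfh had 2 counts in control replicate 2. The members and all genes were not matched for count level. At the high dose, replicates 2 and 3 exceeded every control in 22 and 23 of the 31 members, but replicate 1 in 2. High-dose replicate 1 was the lowest of its group in 25 of 31. At the low dose, replicate 1 was above the control median in 29 of 31, and replicate 4 was below every control in 8.

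**Figure D2:**
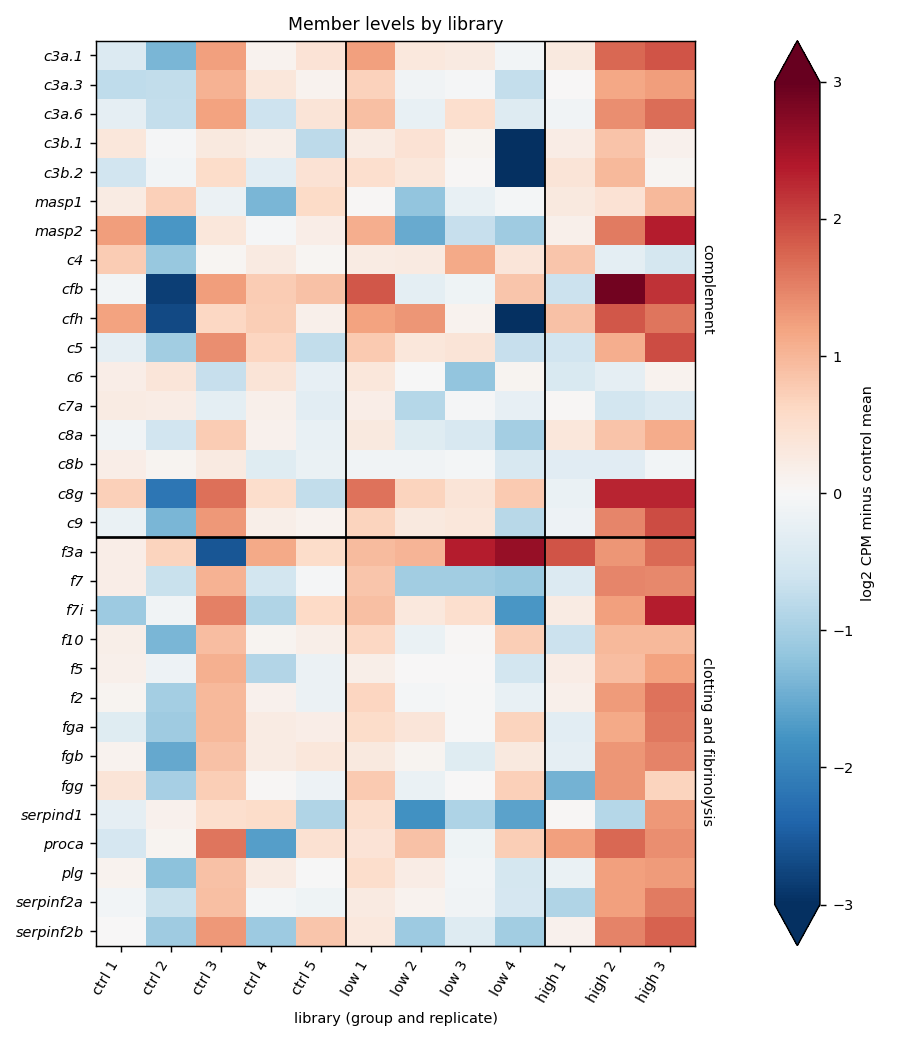
Log2 CPM minus the control mean for the 31 tested members (rows) in the 12 libraries (columns), red above and blue below the control mean, with colours ending at 3 in either direction. Control replicate 3 and high-dose replicates 2 and 3 are red and control replicate 2 is blue over most rows, in both classes, and c3b.1, c3b.2 and cfh are darkest blue in low-dose replicate 4.

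At the high dose, 28 of the 31 tested members had a log2 fold change above 0, 14 of 17 for complement and all 14 tested for clotting, where 49.5% of the 18618 genes tested did. Their median log2 fold change was 0.75 for complement and 0.86 for clotting, against -0.003 over the 18618 genes. No member passed an adjusted p of 0.05 in edgeR's quasi-likelihood test (Benjamini-Hochberg), and 0% of all genes did. At an unadjusted p under 0.05, 2 members were higher, c3a.1 and f2, where 1.07% of all genes were. None was lower, where 0.929% of all genes were. The groups did not overlap for 1 member, f3a, which was higher, where 1.39% of all genes were higher without overlap and 1.08% lower. This gene reached the count limit only through its high-dose libraries, with a mean count of 6.8 in controls and 17.7 at the high dose. Its place among the 28 and the 14 and its lack of overlap are therefore tied to that limit. DESeq2 and limma also put no member past the adjusted threshold, with 7 and 12 members at an unadjusted p under 0.05.

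These high-dose values rested on few libraries. Without high-dose replicate 3 the median over the 31 members went from 0.84 to 0.53, and without high-dose replicate 1 it was 1.22 over 30. The count at an unadjusted p under 0.05 went from 2 to 18 without control replicate 3, to 18 without high-dose replicate 1, to 1 when control replicate 4 or 5 was left out, and to 0 without high-dose replicate 2 or 3. Without control replicates 2 and 3 together it was 18, with a median of 0.94 over 32 members.

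Of the C3 copies, whose product is split to coat microbes, all 5 tested were higher at the high dose, with a median log2 fold change of 0.74. For c3a.1, the copy with the highest FPKM, the 5 controls held 18.1, 9.25, 56.6, 25.7 and 31.8 CPM and the 3 high-dose libraries 29.1, 78.7 and 88.7. High-dose replicate 1 lay inside the control range and the other two above it. The log2 fold change was 1.21 (SE 0.48), with an edgeR unadjusted p of 0.0266 and an adjusted p of 1.00. The neighbouring copy c3a.6 stood at 8.34, 6.12, 23.3, 6.48 and 13.2 CPM in controls and 9.33, 26.6 and 32.1 at the high dose. The third copy, c3a.3, stood at 8.49, 8.54, 29.8, 18.1 and 15.4 CPM in controls and 14.4, 32.04 and 34.1 at the high dose. Both had the same layout as c3a.1, with high-dose replicate 1 among the controls and the others above them. Their log2 fold changes were 0.98 (SE 0.47) for c3a.6 and 0.74 (SE 0.41) for c3a.3, both at an edgeR adjusted p of 1.00. Without high-dose replicate 3, c3a.6 was at 0.64. The c3b pair was less far from 0, at 0.40 (SE 0.34) for c3b.1 and 0.47 (SE 0.34) for c3b.2 on the log2 scale.

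Among the genes that start the cascade, the log2 fold changes at the high dose ran from 0.03 for c4, the shared component of the classical and lectin pathways, to 1.36 for masp2, a protease of the lectin pathway. The remaining gene of this group, masp1, another lectin pathway protease, stood between them at 0.43 (SE 0.45). In the alternative pathway, cfb, which carries the protease of the C3 convertase, ranged over 0.142 to 3.65 CPM in controls and 0.926 to 11.4 at the high dose. Its brake cfh, which encodes factor H, ranged over 0.142 to 3.17 CPM in controls and 2.51 to 5.05 at the high dose. On the log2 scale cfb differed by 1.61 (SE 0.79) and cfh by 1.09 (SE 0.66).

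Of the 7 tested terminal components, which assemble the pore, 4 were higher and 3 lower at the high dose. The pore-forming c9 held 31.9, 14.0, 89.2, 41.3 and 39.0 CPM in the 5 controls and 32.9, 101 and 140.5 at the high dose. High-dose replicates 2 and 3 exceeded the highest control and replicate 1 lay below the control median. The log2 fold change was 1.09 (SE 0.51) with an edgeR adjusted p of 1.00, and it was 0.64 when high-dose replicate 3 was left out. For c8a, which encodes the alpha chain of C8, controls held 4.80, 3.42, 8.77, 5.65 and 4.36 CPM and high-dose libraries 6.48, 9.40 and 11.2. The groups overlapped through control replicate 3. The log2 fold change was 0.75 (SE 0.35, edgeR adjusted p 1.00). The 3 members lower at the high dose were all terminal components, with -0.31 (SE 0.27) for c7a, -0.27 (SE 0.23) for c8b and -0.25 (SE 0.42) for c6. The genes c8b and c7a were also the 2 members with the smallest spread over the controls, with ranges of 10.7 to 16.6 and 8.72 to 12.99 CPM. The partners c8a and c8b overlap in the genome and had log2 fold changes of opposite sign.

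On the clotting side, all 6 tested genes from tissue factor to thrombin were higher at the high dose, with a median log2 fold change of 0.97. The tissue factor gene f3a among them reached the count limit only through its high-dose libraries. For f2, which encodes prothrombin, the 5 controls held 11.7, 5.41, 21.6, 11.9 and 9.77 CPM and the high-dose libraries 12.3, 26.6 and 34.0. High-dose replicate 1 lay within the control range and the other two above it. The log2 fold change was 1.01 (SE 0.40), with an edgeR unadjusted p of 0.0280 and an adjusted p of 1.00. The gene f7i, a factor VII copy described in zebrafish as an inhibitor of clotting, held 1.99, 3.99, 12.4, 2.28 and 6.58 CPM in controls and 5.16, 10.2 and 22.5 at the high dose. High-dose replicate 3 stood alone above the controls. Its log2 fold change was 1.22 (SE 0.60, edgeR adjusted p 1.00), and 0.50 without high-dose replicate 3. The neighbours f7 and f10, which encode factors VII and X, differed by 0.93 (SE 0.51) and 0.44 (SE 0.47) on the log2 scale. The cofactor gene f5 had 0.71 (SE 0.40).

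Tissue factor gene f3a, whose product starts clotting, was the one tested member whose control and high-dose libraries did not overlap. It is described for that reason, after its values were seen. The controls held 0.443, 0.641, 0, 0.912 and 0.586 CPM and the high-dose libraries 1.59, 1.04 and 1.38. Every high-dose library was above the highest control, though 1 control had no count. Because f3a reached the count limit only through its high-dose libraries, this lack of overlap is tied to the limit. The fitted log2 difference was 1.34 (SE 0.77), and the edgeR unadjusted p was 0.109 and the adjusted p 1.00.

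The 3 tested fibrinogen chains, the substrate of thrombin, were higher with a median log2 fold change of 0.84. The alpha chain gene fga held 33.4, 20.4, 84.9, 51.2 and 49.3 CPM in controls and 34.4, 94.5 and 129 at the high dose. The beta chain gene fgb held 26.1, 8.33, 44.7, 29.1 and 30.8 CPM in controls and 20.2, 60.9 and 68.4 at the high dose. In both genes high-dose replicate 1 was below the control median and the other two above every control. The log2 fold changes were 0.84 (SE 0.44) for fga and 0.84 (SE 0.45) for fgb, with an edgeR adjusted p of 1.00 for both. For fga the value was 0.43 without high-dose replicate 3, and for fgb it was 0.55. The gamma chain gene fgg differed by 0.47 (SE 0.52).

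The clot-dissolving arm and its brakes had the same sign. The plasminogen gene plg, precursor of plasmin, held 47.1, 18.5, 80.0, 52.1 and 43.2 CPM in controls and 37.7, 102 and 106 at the high dose. Again high-dose replicates 2 and 3 were above every control and replicate 1 was below the control median. Its log2 fold change was 0.76 (SE 0.41, edgeR adjusted p 1.00). The 2 genes for the plasmin inhibitor alpha-2-antiplasmin, serpinf2a and serpinf2b, differed by 0.87 (SE 0.50) and 0.98 (SE 0.54) on the log2 scale. Of the thrombin-limiting genes, proca, for protein C, had 1.12 (SE 0.60) and serpind1, for heparin cofactor II, had 0.37 (SE 0.65).

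**Figure D3:**
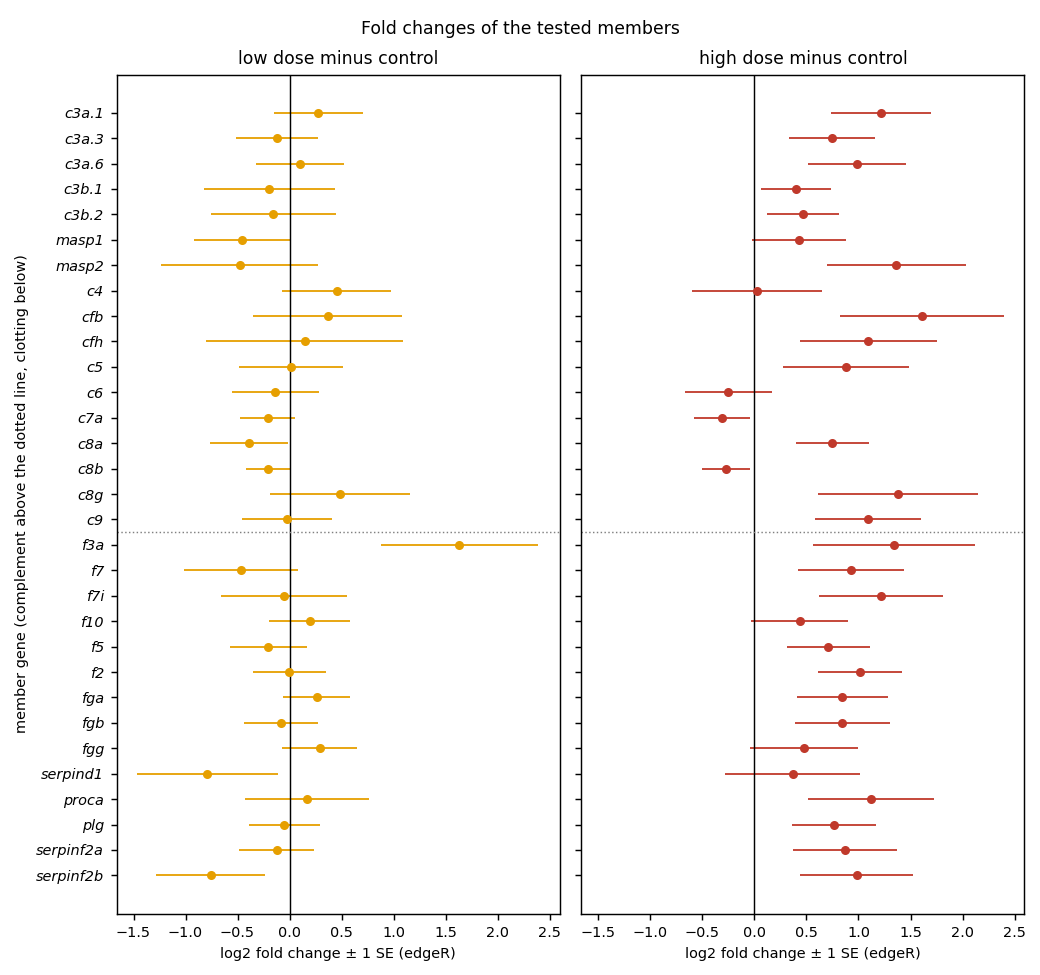
EdgeR log2 fold change (point) with 1 standard error to either side (line) for the 31 tested members, low dose minus control on the left and high dose minus control on the right. On the right 28 of 31 points lie above 0, all but c6, c7a and c8b, and on the left 12 of 31 do.

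**Figure D4:**
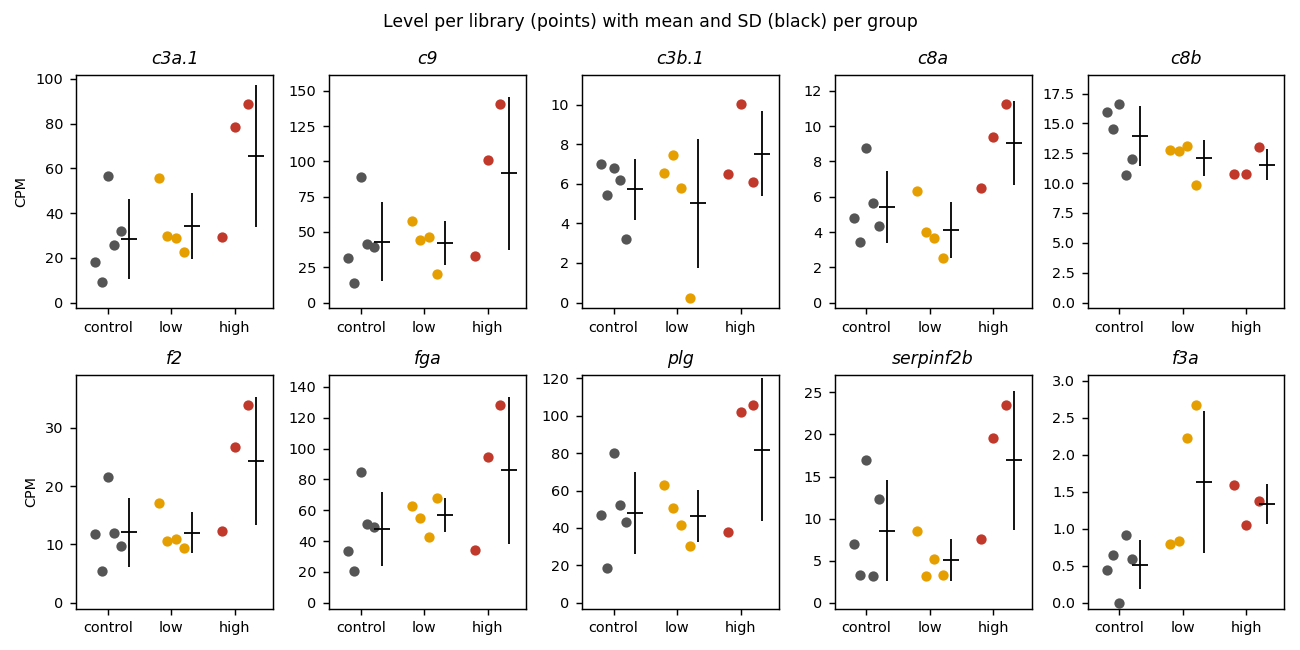
CPM in every library for 10 members in control (grey), low-dose (orange) and high-dose (red) libraries, with the mean and SD of each group in black. In c3a.1, c9, f2, fga and plg 2 of 3 high-dose libraries lie above all controls and 1 among them, whereas c8b overlaps in all groups and c3b.1 has 1 low-dose library near 0.

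Markers of the hepatocyte, the exocrine pancreas, the intestine and yolk and gut apolipoproteins were lowest and highest in the same control libraries as the members, and lowest in the same high-dose library. Of 20 hepatocyte markers listed, 19 were in the tables and 18 were tested; hnf4a was not matched, hpx was at 0 in 6 libraries, and fabp10a, a liver fatty acid binding protein gene, averaged 388 CPM with no library at 0. Their summed level ran from 669.8 to 3017 CPM for control libraries, from 1278 to 1901 for low-dose libraries and from 1139 to 3021 for high-dose libraries. At the high dose 15 of the 18 were higher and 3 lower, with a median log2 fold change of 0.65. The list was not uniform, with log2 fold changes from -0.57 to 1.48. The 3 with the smallest p were cp, for the copper carrier ceruloplasmin, at 0.76 (SE 0.33), ambp, for a plasma protease inhibitor, at 1.48 (SE 0.65), and ttr, for a thyroid hormone carrier, at 1.16 (SE 0.56). Their edgeR adjusted p was 1.00 each.

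A list score, the mean log2 CPM of a list minus its control mean, showed the same control and high-dose libraries at the extremes in the 3 lists. The complement score was -0.89 in control replicate 2 and 0.64 in control replicate 3, and 0.06, 1.00 and 1.09 in the high-dose libraries. The clotting score was -0.64 and 0.77 in those controls, and -0.02, 1.13 and 1.45 at the high dose. The hepatocyte score was -1.18 and 0.98 in those controls, and -0.20, 1.08 and 1.08 at the high dose. In each list, control replicate 3 was the highest of the controls, control replicate 2 the lowest, and high-dose replicate 1 the lowest of its group. The lists of yolk and gut apolipoproteins, exocrine pancreas and intestine had the same libraries in those places. The apolipoprotein score was -1.149 and 0.743 in those controls, and -0.05, 0.93 and 1.105 in the high-dose libraries. The pancreas score was -1.06 and 1.152 in the controls, and -0.34, 0.83 and 0.62 in the high-dose libraries. The intestine score was -0.89 and 1.12 in the controls, and -0.67, 0.36 and 0.43 in the high-dose libraries. The macrophage, neutrophil and acute-phase lists shared the low ends, at -1.68, -0.82 and -0.71 in control replicate 2. In high-dose replicate 1 they stood at -0.72, -0.31 and -0.44. Their highest control was not control replicate 3. In the endothelium and thrombocyte lists control replicate 2 was not the lowest control. With the hepatocyte score of each library as a covariate, a fit chosen after seeing the data, the median log2 fold change of the members at the high dose was 0.22 instead of 0.84. In that fit it was 0.26 for complement and 0.21 for clotting, 25 of 31 were above 0, and 1 had an unadjusted p under 0.05.

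**Figure D5:**
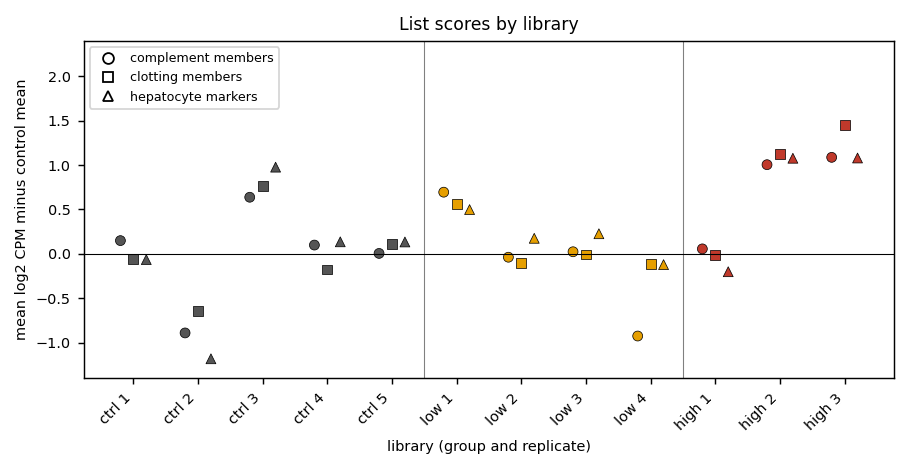
Mean log2 CPM minus the control mean in each of the 12 libraries for the complement members (circles), the clotting members (squares) and the hepatocyte markers (triangles). The 3 lists are low in control replicate 2 and high in control replicate 3 and high-dose replicates 2 and 3; complement alone is also low in low-dose replicate 4.

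The other marker lists had median log2 fold changes closer to 0 than the hepatocyte list at the high dose. On the list score the apolipoproteins were level with the hepatocyte list, with high-dose means of 0.66 and 0.65. The liver also makes apolipoproteins, so the yolk and gut list is not separate from the hepatocyte list. Yolk and gut apolipoprotein genes were higher in 8 of 8 tested, with a median log2 fold change of 0.27. The largest value was 1.26 for apoa1b, a lipoprotein scaffold gene. Their summed level ran from 515 to 2951 CPM in controls and from 1099.7 to 3646 at the high dose. Exocrine pancreas markers were higher in 9 of 11 (median 0.30), intestine markers in 3 of 7 (-0.01), endothelium markers in 4 of 6 (0.07), macrophage markers in 1 of 5 (-0.12), neutrophil markers in 2 of 4 (0.05) and thrombocyte markers in 1 of 2 (-0.56). In the thrombocyte list itga2b, itgb3b and f13a1a.1 were at 0 in 3, 7 and 3 libraries. The gene cpa5 is in both the pancreas and the neutrophil list. The part of any of these cell types in the members' values was not tested. The covariate fit cannot give the hepatocyte part, because the hepatocyte score itself averaged 0.65 above the control mean at the high dose. That score also shared its extreme control libraries with the pancreas, intestine and apolipoprotein lists. Of 8 tested genes on the acute-phase list, 4 were higher, with a median log2 fold change of -0.004. That list holds a cytokine gene and genes of cytokine signalling beside plasma proteins of the liver. Its median is therefore not that of liver products alone. The 3 with the smallest p were hp, for haptoglobin, at 1.02 (SE 0.47), crp, for C-reactive protein, at 0.77 (SE 0.57), and socs3b, a brake on cytokine signalling, at -0.29 (SE 0.22).

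Other genes of the complement and clotting pathways came from a list that includes genes made outside the liver. At the high dose 5 of 7 tested complement genes were higher, with a median log2 fold change of 0.43 and none at an unadjusted p under 0.05. The leading values were 0.79 (SE 0.44) for cfhl4, related to factor H, 0.73 (SE 0.56) for vtna and 0.43 (SE 0.39) for vtnb, both for vitronectin, which binds the terminal complex. Of 8 tested clotting genes, 3 were higher, with a median of -0.03. Among them, pros1, the protein S cofactor, had 0.25 (SE 0.20) and tfpia, the tissue factor pathway inhibitor, had -0.18 (SE 0.31).

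The low dose was compared with the same 5 controls as the high dose. At the low dose, 12 of the 31 tested members had a log2 fold change above 0, 7 of 17 for complement and 5 of 14 for clotting, where 50.2% of 18811 genes did. The median was -0.12 for complement and -0.05 for clotting, against 0.00 over all genes. No member passed the adjusted threshold in edgeR, where 0% of all genes did, nor in DESeq2 or limma. None had an unadjusted edgeR p under 0.05, where 2.09% of all genes were higher and 1.8% lower at that level; DESeq2 put 1 member there and limma 0. The low-dose libraries overlapped the controls in all 31 tested members, where 0.712% of genes were higher and 0.835% lower without overlap. The sign of these medians depended on the libraries and the tool. Leaving out control replicate 3 gave 0.20 for complement and 0.27 for clotting, and leaving out low-dose replicate 4 gave 0.21 and 0.04. The clotting median was 0.02 when low-dose replicate 3 was left out. Limma gave 0.01 for complement and 0.17 for clotting, with 19 of 31 members above 0, 9 of 17 and 10 of 14. Low-dose replicate 1 moved them to -0.26 and -0.23 when it was left out.

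The low-dose values of 2 complement and 2 clotting genes showed this overlap. They had the smallest p of their class among members with a mean count of at least 50. The gene c8a held 6.31, 3.98, 3.67 and 2.51 CPM at the low dose, against the control values above. Low-dose replicate 4 lay below every control. Here the log2 fold change was -0.39 (SE 0.38, edgeR adjusted p 0.924). For masp1, controls held 4.06, 5.62, 3.03, 1.28 and 5.14 CPM and low-dose libraries 3.52, 1.46, 2.90 and 3.29. Every low-dose library lay within the control range. Its fitted log2 difference was -0.46 (SE 0.46, edgeR adjusted p 0.924). For serpinf2b, controls held 7.01, 3.27, 17.0, 3.19 and 12.4 CPM and low-dose libraries 8.55, 3.21, 5.22 and 3.29. Its log2 fold change was -0.76 (SE 0.53, edgeR adjusted p 0.924). For fgg, the fibrinogen gamma chain, controls held 9.59, 3.63, 12.3, 7.48 and 6.64 CPM and low-dose libraries 12.7, 6.35, 7.44 and 12.1. Both groups spanned nearly the same range, apart from control replicate 2. The log2 fold change was 0.29 (SE 0.36, edgeR adjusted p 0.930). These values moved by over 1.5 times with single libraries. Without control replicate 3, c8a was at -0.14, serpinf2b at -0.35 and fgg at 0.51. Without low-dose replicate 1, c8a was at -0.67. The value of fgg was 0.10 without control replicate 2, and that of masp1 was -0.25 without low-dose replicate 2.

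The 2 members with the highest FPKM of their class lay close to 0 at this dose. The gene c9 held 57.9, 44.4, 46.1 and 20.5 CPM in the low-dose libraries, all within the control range. Its log2 fold change was -0.03 (SE 0.43, edgeR adjusted p 0.995), and it changed sign to 0.43 without control replicate 3 and to 0.20 when low-dose replicate 4 was left out. The gene fga held 63.0, 55.0, 42.7 and 68.0 CPM, also within the control range. Its log2 fold change was 0.26 (SE 0.33, edgeR adjusted p 0.931), and it was 0.07 without control replicate 2 and 0.58 without control replicate 3. The largest fitted change at either sign was in f3a, the tissue factor gene, with 0.799, 0.837, 2.22 and 2.68 CPM in low-dose libraries. Its log2 fold change was 1.63 (SE 0.76, edgeR unadjusted p 0.0517 and adjusted p 0.924), and it is named after its values were seen. Here too f3a reached the count limit only through treated libraries, with a mean count of 6.8 in controls and 23.25 at the low dose.

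The other pathway genes and marker lists at the low dose were as follows. Of 7 tested complement genes 1 was higher (median log2 fold change -0.25), with -0.60 (SE 0.28) for cd59, which shields host cells from the pore, -0.53 (SE 0.37) for vtnb and 0.91 (SE 0.88) for mbl2, a lectin that starts the cascade. Of 9 tested clotting genes 3 were higher (median -0.07), with -0.97 (SE 0.47) for f3b, the second tissue factor gene, and -0.59 (SE 0.42) for vwf, the platelet-adhesion factor. Hepatocyte markers were higher in 10 of 18 (median 0.04) and acute-phase genes in 4 of 8 (-0.12). Exocrine pancreas markers were higher in 10 of 11, with a median log2 fold change of 0.80 and a summed level of 1697 to 3072 CPM against 499.9 to 2573 in controls. The remaining lists were higher in 2 of 8 for apolipoproteins (median -0.20), 3 of 7 for intestine (-0.04), 4 of 6 for endothelium (0.12), 3 of 5 for macrophages (0.10), 3 of 4 for neutrophils (0.39) and 0 of 2 for thrombocytes (-0.40).

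Between the doses, in a fit on all 12 libraries, 26 of the 31 members were higher at the high than at the low dose, where 48.9% of 18786 genes were. The median difference was 0.89 on the log2 scale, against -0.01 over all genes. No member passed the adjusted threshold in edgeR, where 0% of genes did, nor in DESeq2 or limma. At an unadjusted edgeR p under 0.05, 6 members were higher, where 2.43% of all genes were, and none lower, where 2.05% were. DESeq2 gave 7 members at that level and limma 9. The 6 were c8a, masp2, serpinf2b, f2, f5 and f7. The groups did not overlap for 4 members, c8a, masp1, f5 and proca, all higher at the high dose, where 3.84% of all genes were higher without overlap and 2.87% lower.

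For serpinf2b the high-dose libraries held 7.61, 19.6 and 23.5 CPM, against the low-dose values above. Replicate 1 of the high dose lay between the low-dose libraries and the others lay above all of them. The difference was 1.74 (SE 0.57, edgeR unadjusted p 0.00855, adjusted p 0.953). For c8a every high-dose library exceeded every low-dose library, and the difference was 1.14 (SE 0.39, edgeR adjusted p 0.953). For c9 the difference was 1.12 (SE 0.53, edgeR adjusted p 0.953), and 0.66 without high-dose replicate 3. For f2 the low-dose libraries held 17.2, 10.6, 10.9 and 9.43 CPM and the difference was 1.01 (SE 0.41, edgeR adjusted p 0.953).

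The count of 6 between the doses moved with single libraries. It was 17 without high-dose replicate 1, 13 without control replicate 3, 10 without control replicate 2 and 12 without low-dose replicate 1. It was 2 without low-dose replicate 2, 3 or 4 or high-dose replicate 2, and 1 without high-dose replicate 3. The hepatocyte score as a covariate gave 3 such members and a median difference of 0.31.

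Complement and clotting members were then set against each other within each library, as the mean log2 CPM of the 17 tested complement genes minus that of the 14 tested clotting genes. The difference averaged -0.29 ± 0.23 for control libraries (SD, n = 5), -0.43 ± 0.45 for low-dose libraries (SD, n = 4) and -0.43 ± 0.22 for high-dose libraries (SD, n = 3). The control libraries ran from -0.54 to -0.01, the low-dose libraries from -1.10 to -0.15 and the high-dose libraries from -0.65 to -0.22. The 3 groups overlapped, and the group means lay within 1 SD of each other. No test was run, and overlap of 5, 4 and 3 libraries cannot show that the classes changed alike. On log2 CPM the lowest value belonged to low-dose replicate 4, where c3b.1, c3b.2 and cfh had 4, 7 and 0 counts. Without that library the low-dose mean was above the control mean by 0.08. On log2 FPKM, with 1 added before the log, the lowest was high-dose replicate 3 at -0.86, with low-dose replicate 4 at -0.79.

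The authors' deposited table also put no member past an adjusted p of 0.05, and its smallest adjusted p was 0.983 for the low dose and 1.00 for the high dose. At an unadjusted p under 0.05, the authors' deposited table had 1 member higher in the low-dose comparison and 5 in the high-dose comparison.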

How the data were processed

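Per the labels' protocols, total RNA from larvae was isolated with TRIzol and made into poly(A) libraries with a directional kit. The build GRCz11 and the tools fastp, HISAT2, featureCounts and DESeq2 are listed, without versions, per the submitters' processing notes. The deposited tables, 1 per dose with the same controls, hold raw counts per Ensembl gene, and these were the starting point. Per the file headers they also hold FPKM. It was used here to compare levels between genes and as a second scale for the complement minus clotting difference. The headers also name the authors' log2 fold change with its p-value and adjusted p-value, used only where the authors' deposited table is named. Another 21 columns were not used.

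Genes averaging 10 counts or more were tested by edgeR's quasi-likelihood F test (edgeR 4.0.16 in R 4.3.3; TMM factors, prior count 0.125). Each table was fitted alone, and the dose difference on all 12 libraries. The threshold was a Benjamini-Hochberg adjusted p under 0.05. Standard errors were derived from the log2 fold change and its F statistic. Log2 CPM used a prior count of 1. The scripts were tested on simulated data. Alternatives were DESeq2 1.42.0, its size factors, limma 3.58.1 with quality weights, no filter, a mean count of at least 50, a prior count of 5, a replicate block, all libraries in one fit, and left-out libraries. Total counts ranged from 10721597 to 16380300 per library.

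The members and lists were chosen with earlier results of these data known. Values per library are given for up to 5 complement and 5 clotting members with the smallest unadjusted p at the high dose and a mean count of at least 50, for up to 2 of each in the other comparisons, and for the highest FPKM of each class. Up to 3 genes with the smallest p were named from other lists; the values of 1 such gene are not reported here.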

Additional observations from a re-analysis of the deposited data

Results flagged for a closer look

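Of 70 groups of 4 or 5 values looked at, 7 held a library far from the others by Dixon's ratio. A chance rate of about 1 group in 20 holds for independent, normally distributed values. Most groups here were CPM of members that moved together across libraries, so the 7 cannot be set against that rate. In controls, serpinf2a stood at 9.71 CPM in replicate 3, with the next highest at 4.93 CPM. Low-dose replicate 1 stood above the rest of its group in masp2, at 2.48 CPM against at most 0.677, and in f7, at 5.51 CPM against at most 1.46. The clotting score of that library was 0.56, with the next highest low-dose score at -0.01. Low-dose replicate 3 held 2.71 CPM of c4, with the next highest at 1.56. Low-dose replicate 4 held 9.88 CPM of c8b, below the 12.7 CPM of the next lowest, and its complement minus clotting difference was -1.10, with the next lowest at -0.26.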

How the results depend on the processing

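No member passed the adjusted threshold under any alternative run, and the medians at the high dose and between the doses stayed above 0. The number of members at an unadjusted p under 0.05 moved. At the low dose it went from 0 to 1 with DESeq2 or all libraries in one fit, to 2 without control replicates 2 and 3 and low-dose replicate 4 or with the hepatocyte score as a covariate, and ranged from 0 to 3 over left-out libraries. At the high dose it went from 2 to 7 with DESeq2, 12 with limma, 9 with no filter on low counts, 18 without control replicates 2 and 3 and 1 with the covariate, and from 0 to 18 over left-out libraries. Between the doses it went from 6 to 3 with the replicate block or the covariate, and from 1 to 17 over left-out libraries. With the covariate, added after seeing the data, the clotting median at the high dose was 0.21 and the median difference between the doses 0.31. Over left-out libraries the complement median ran from 0.56 to 1.09 and the clotting median from 0.52 to 1.22 at the high dose, the medians at the low dose from -0.26 to 0.21 and from -0.23 to 0.27, and the complement minus clotting difference from control from -0.24 to -0.02 at the high and from -0.24 to 0.08 at the low dose. For c9 at the low dose, main log2 fold change -0.03, the sign changed to 0.38 with limma, 0.13 with the replicate block and 0.40 without control replicates 2 and 3 and low-dose replicate 4, and the range over left-out libraries was -0.25 to 0.43; the cause was not tested. The replicate number was not taken as a pairing: correlations of same-numbered deviations ran from -0.26 to 0.26, and 2 of 4 low-dose and 1 of 3 high-dose libraries correlated best with the control of their number. The block put the low-dose clotting median at 0.09 and put no member past the adjusted threshold. Limma put the low-dose medians at 0.01 for complement and 0.17 for clotting. Of the remaining values, 199 for summaries stayed near the main value, by a set fold for counts and the control SD for the rest. Those limits did not ask for the same sign, and some low-dose medians among the 199 changed sign. Of the named-gene values, 372 kept their sign and side of the threshold. The spread between 3, 4 and 5 libraries limits these values, and counting error adds to it for members with a mean count near 10.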

Other observations

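Low-dose replicate 4 held few or no counts of 3 complement genes of chromosome 22, described here after their values were seen. The C3 copy c3b.1 had 4 counts there, 0.223 CPM, against 3.19 to 10.0 CPM in the other 11 libraries. Its neighbour c3b.2 had 7 counts, 0.391 CPM, against 4.28 to 12.7 CPM. The factor H gene cfh had 0 counts, against 0.142 to 5.05 CPM. The c3a copies on chromosome 1 were inside the range of the others in this library, with c3a.1 at 22.5 CPM and c3a.3 at 8.65 CPM. Over the 18786 genes tested, 256 genes, 1.36%, lay more than 4-fold below the lowest of the other 11 libraries in low-dose replicate 4, among them c3b.1, c3b.2 and cfh. On chromosome 22 these were 27 of 666 genes, 4.05%, and on chromosome 4 they were 38 of 831, 4.57%. Chromosomes 12, 14 and 1, the last of which holds the c3a copies, followed at 3.52%, 3.08% and 2.73%. The other numbered chromosomes held at most 1.5%. Over all genes the same count was 462 in control replicate 3, f3a among them, and 242 in control replicate 2, cfb among them. It ran from 7 to 141 in the other libraries. The cause was not tested.

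The gene c4b was not found by symbol, but its Ensembl gene ENSDARG00000038424 is in both tables under the name si:dkey-8k3.2, paired through the table of gene names. Its log2 fold change was 0.82 (SE 0.45) at the low dose, with an edgeR adjusted p of 0.924, and 0.23 (SE 0.45) at the high dose, with an adjusted p of 1.00. It is in none of the counts of members above.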
